A study of Xenopus laevis with 16 samples.

Results

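The 150 probes described here were those with the highest level in animal caps over whole embryos of Xenopus laevis injected with a control morpholino, out of 21495 gene probes on the array. An animal cap is the ectoderm cut from the top of the blastula and cultured alone. For each probe, the mean of the control caps minus the mean of the control embryos was taken at stage 9 (late blastula) and at stage 10 (early gastrula) in the authors' processed values, and the smaller of both differences was ranked. Only the 9592 probes with a spot well above background in all 4 control cap arrays and all 4 control embryo arrays were ranked. The 150 with the largest value were kept. The members were thus chosen by the values of the control arrays, and their difference between caps and embryos is given only as a description.

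The study compared embryos depleted of POUV activity by PVD2, a mixture of antisense morpholinos against the Xlpou25, Xlpou60 and Xlpou91 transcripts, with embryos that received a control morpholino. The groups were PVD2 caps, PVD2 embryos, control caps and control embryos, each at stages 9 and 10, with 2 replicates of each and 16 arrays in all. Every embryo received 60 ng of morpholino in each blastomere at the 2-cell stage, so the control embryos carried a morpholino too. Caps were cut at stage 8, and an RNA sample pooled 25 caps or 3 whole embryos. A whole embryo includes its own ectoderm, so caps were set against a mixture that contained the same tissue. Sample RNA carried Cy3 and was hybridized with a Cy5-labelled reference pooled from whole embryos of early cleavage to neurula stages. Values below are log2 ratios of sample over this reference after background correction and loess normalization, unless stated otherwise. Scanner output was used for 15 arrays, which left PVD2 caps at stage 10 with 1 array, whose spread was taken from the other groups. Of the arrays with scanner output, all cap arrays were scanned on 1 day and all embryo arrays on another, and they lay on separate slides, so in every comparison of caps with embryos the tissue, the slide and the scan day cannot be told apart. The median net Cy3 signal of the 9592 ranked probes was 856 to 999 units in cap arrays and 163 to 396 units in embryo arrays, and outlier spots numbered at most 340 except for 1153 and 460 in control embryos at stage 9. The number of arrays limits the precision of every value.

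The animal cap is fated to form epidermis and, when exposed to neural inducers, nervous tissue. At blastula and gastrula stages it starts to express type I keratins, the intermediate filament proteins of epithelial cells, and transcription factors of the non-neural ectoderm such as dlx3. Vegetal cells and the marginal zone, which are left out of the cap, give rise to endoderm and mesoderm. In RNA from pooled tissue, more cells of a type and more RNA per cell cannot be told apart.

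Of the 150 members, 49 carried a gene name and 101 were known only as clones or expressed sequence tags. A RefSeq match was found for 41. By their names, most of the leading members were not regulators of early ectoderm. They included keratins (krt12.5, krt70 and MGC68905, annotated as a gastrula stage epidermal type I cytokeratin) and epidermal or mucus proteins (otogl2, and fucolectin, annotated as X-epilectin). Others had names of muscle proteins (ckm, the creatine kinase of muscle, and atp2a1, the calcium pump of the muscle reticulum). The atp2a1 probe was annotated as Calcium ATPase at 60A, and its symbol came from a match by name. Matrix proteins were col1a1, the alpha 1 chain of type I collagen, and MGC64258, annotated as SPARC. Plasma proteins of liver were serpina1, alpha-1-antiproteinase, and MGC52934, annotated as similar to apolipoprotein A-I. Ribosomal protein probes made up 7 of the 150, and of these rps10 and rps-6 were among the 25 leading named members. The choice of members does not name a tissue, and they are called here the cap-high probes. All 150 had at least 1 spot well above background on each of the 15 arrays with scanner output. None was saturated in Cy3, and 1, krt70, was saturated in Cy5 on at least 1 array. On the embryo arrays the members' median net Cy3 signal was only 38.2 to 97.1 units. The background correction added an offset of 50. The mean net Cy3 of MGC83149 was −81.0 units in PVD2 caps at stage 10, replicate 1.

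In the authors' values that chose them, the control caps exceeded the control embryos by a median of 1.56 on the log2 scale at stage 9 and 1.59 at stage 10, with ranges of 1.19 to 4.59 and 1.21 to 7.88. In the scanner values the same control arrays gave smaller differences, with medians of 0.85 at stage 9 and 1.14 at stage 10. Of the 150, 149 were above 0 at both stages. The same ranking made on the scanner values shared 73 of the 150 probes. A ranking of the authors' values without the background filter shared 32. The last named members inside the list were MGC52527, annotated as ornithine decarboxylase-2, with a ranking value of 0.380 on the log10 scale, srf with 0.378, iqgap1 and rps13 with 0.373 each, and rgn with 0.369. The first named probes outside it were ing5 with 0.351, DQ096881 with 0.351, kcnk5 with 0.351, AIP1 with 0.349 and nr4a1 with 0.346.

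The cap-high probes also had a low level in the samples relative to the reference. The choice favoured high readings in control caps and low ones in control embryos, so the low level in embryos is not independent of it. The PVD2 arrays with scanner output shared slides and scan days with the control arrays of the same tissue. In the PVD2 arrays, which took no part in the choice, 60.0% to 68.7% of the members lay below the reference in caps and 88.7% to 90.7% in embryos. For the 9592 probes that could be ranked, these shares were 46.5% to 47.6% in PVD2 caps and 37.8% to 48.2% in PVD2 embryos. Before any normalization the net Cy3 signal was less than 1/8 of the net Cy5 signal for 40.7% to 45.3% of the members in PVD2 caps and 62.7% to 77.3% in PVD2 embryos, against 5.33% to 6.46% and 8.39% to 23.5% of the ranked probes. The members' median net Cy3 signal was 389 to 460 units in PVD2 caps and 73.1 to 97.1 units in PVD2 embryos, where the ranked probes had 856 to 970 and 324 to 396 units. In the reference channel the members' median net Cy5 signal was 1987 to 2434 units on the PVD2 cap arrays and 1905 to 4679 units on the PVD2 embryo arrays, against 1947 to 2378 and 1060 to 2525 units for the ranked probes. The members' medians were thus lower than those of the ranked probes in Cy3 of both tissues. In Cy5 they were close to those of the ranked probes on the PVD2 cap arrays but higher on every PVD2 embryo array. At stage 10, replicate 1, of PVD2 embryos they were 4679 against 2525 units. The parts of the dimmer embryo arrays and of the reference channel in the difference between caps and embryos were not tested.

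**Figure D1:**
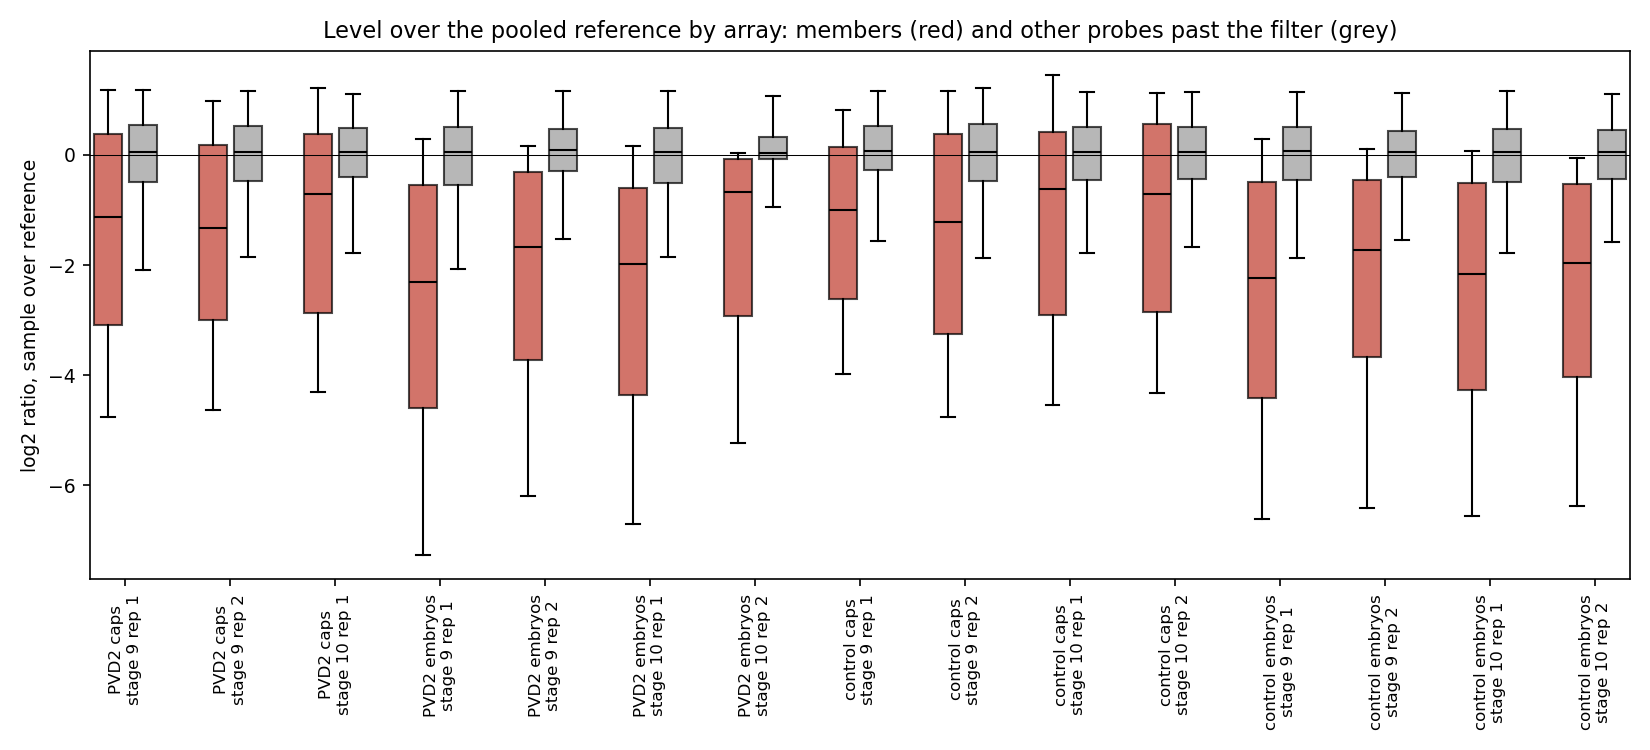
Log2 ratio of sample over the pooled reference (vertical axis) on each of the 15 arrays with scanner output, for the 150 cap-high probes (red) and the other probes that could be ranked (grey). Boxes span the quartiles with the median as a line, and whiskers run between the 5th and 95th percentiles. The members lie below the reference on most arrays, and lowest in embryos apart from PVD2 embryos at stage 10, replicate 2.

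PVD2 caps exceeded PVD2 embryos for most cap-high probes. The difference itself used none of the arrays that chose the members, although its error came from a fit to all 15 arrays, control arrays included, and tissue and scan day were shared. A fit to the PVD2 arrays alone called 13 members, all higher (0.205% of all probes). Over both stages, 54 of the 150 were higher in PVD2 caps at an FDR of 0.05 (limma, Benjamini-Hochberg adjustment over all probes) and 0 were lower, while 2.25% of all 21459 probes tested were higher and 2.12% lower (4.37% in either direction). Of the ranked probes 4.43% were higher. The fit had no block, so arrays that shared a slide counted as independent. The members' median difference was 0.82, with a range of −0.39 to 4.12 and 143 above 0, while the median of all probes was −0.01. In 134 of the 150 the difference was above 0 at both stages. All 3 PVD2 cap arrays lay above all 4 PVD2 embryo arrays for 75 members, a pattern found in 10.0% of all probes. Of the 25 leading named members, 12 passed the test.

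**Figure D2:**
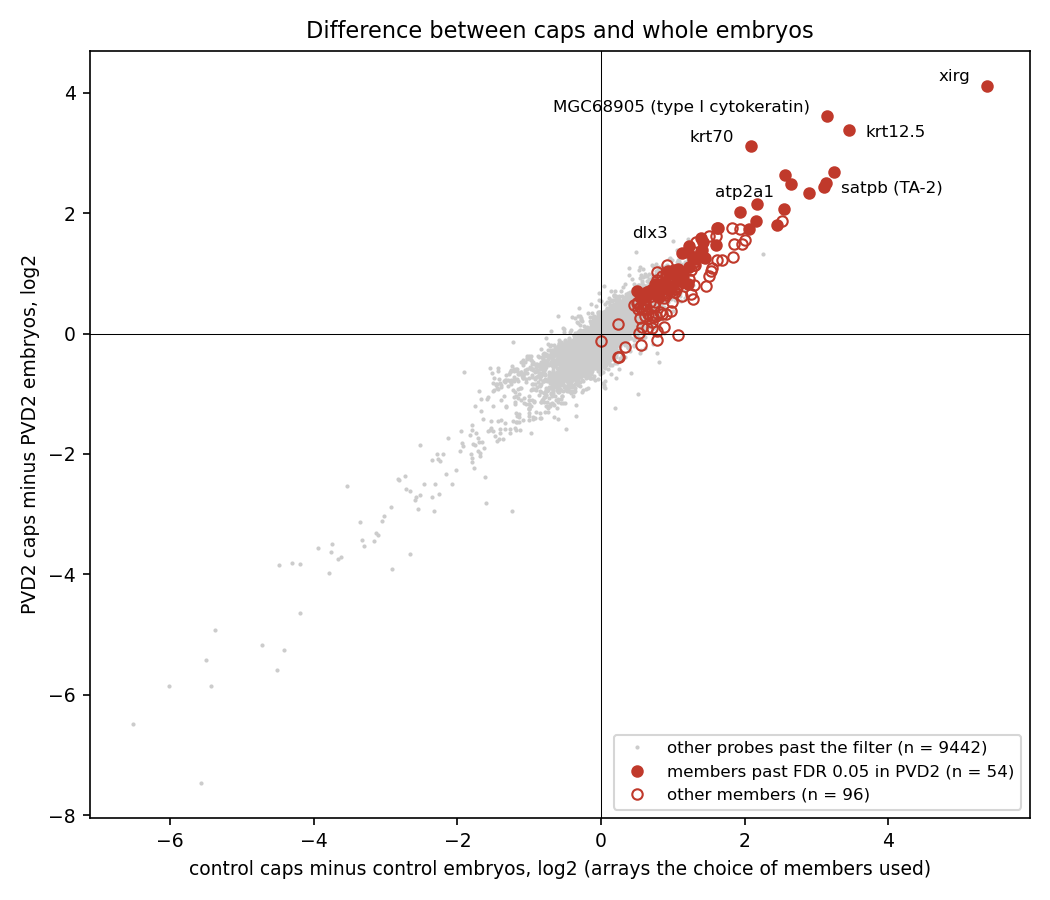
Difference between caps and embryos in the PVD2 arrays (vertical axis, log2) against that in the control arrays (horizontal axis, log2, mean of both stages), with a point for each probe. Filled red points are the 54 members past the FDR of 0.05 in the PVD2 arrays, open red points the other 96 members, and grey points the other probes that could be ranked. The horizontal positions of the members follow from how they were chosen.

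The keratins had the largest differences after xirg. For krt12.5, an epidermal type I keratin, PVD2 caps read −3.26 and −2.73 at stage 9 and −3.56 at stage 10, against −7.27 and −6.62 at stage 9 and −6.71 and −6.01 at stage 10 in PVD2 embryos. The groups did not overlap, and the difference was 3.37 ± 0.32 (SE), or 10.3-fold (adjusted p = 0.00116, limma). MGC68905, the gastrula epidermal cytokeratin, read −3.95, −3.63 and −4.07 in PVD2 caps, against −8.45, −7.73, −7.02 and −6.98 in PVD2 embryos. Its difference of 3.62 ± 0.30 was 12.3-fold (adjusted p = 0.000596). The third keratin, krt70, also known as XK70, read −4.78, −3.71 and −2.69 in PVD2 caps, against −7.96, −7.52, −5.54 and −5.26 in PVD2 embryos. It was higher by 3.11 ± 0.35 in PVD2 caps (8.61-fold, adjusted p = 0.00253), with no overlap. Of the keratin genes listed by symbol for this comparison, which did not match MGC68905, 6 were on the array. Of these, 3 were higher in PVD2 caps and 0 were lower, beside 2.25% and 2.12% of all probes. The median was 0.58 over the 6 and 1.88 over the 4 that passed the background filter of the ranking. The called one outside the members was krt8.1, at 0.65 ± 0.12 (adjusted p = 0.0221).

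**Figure D3:**
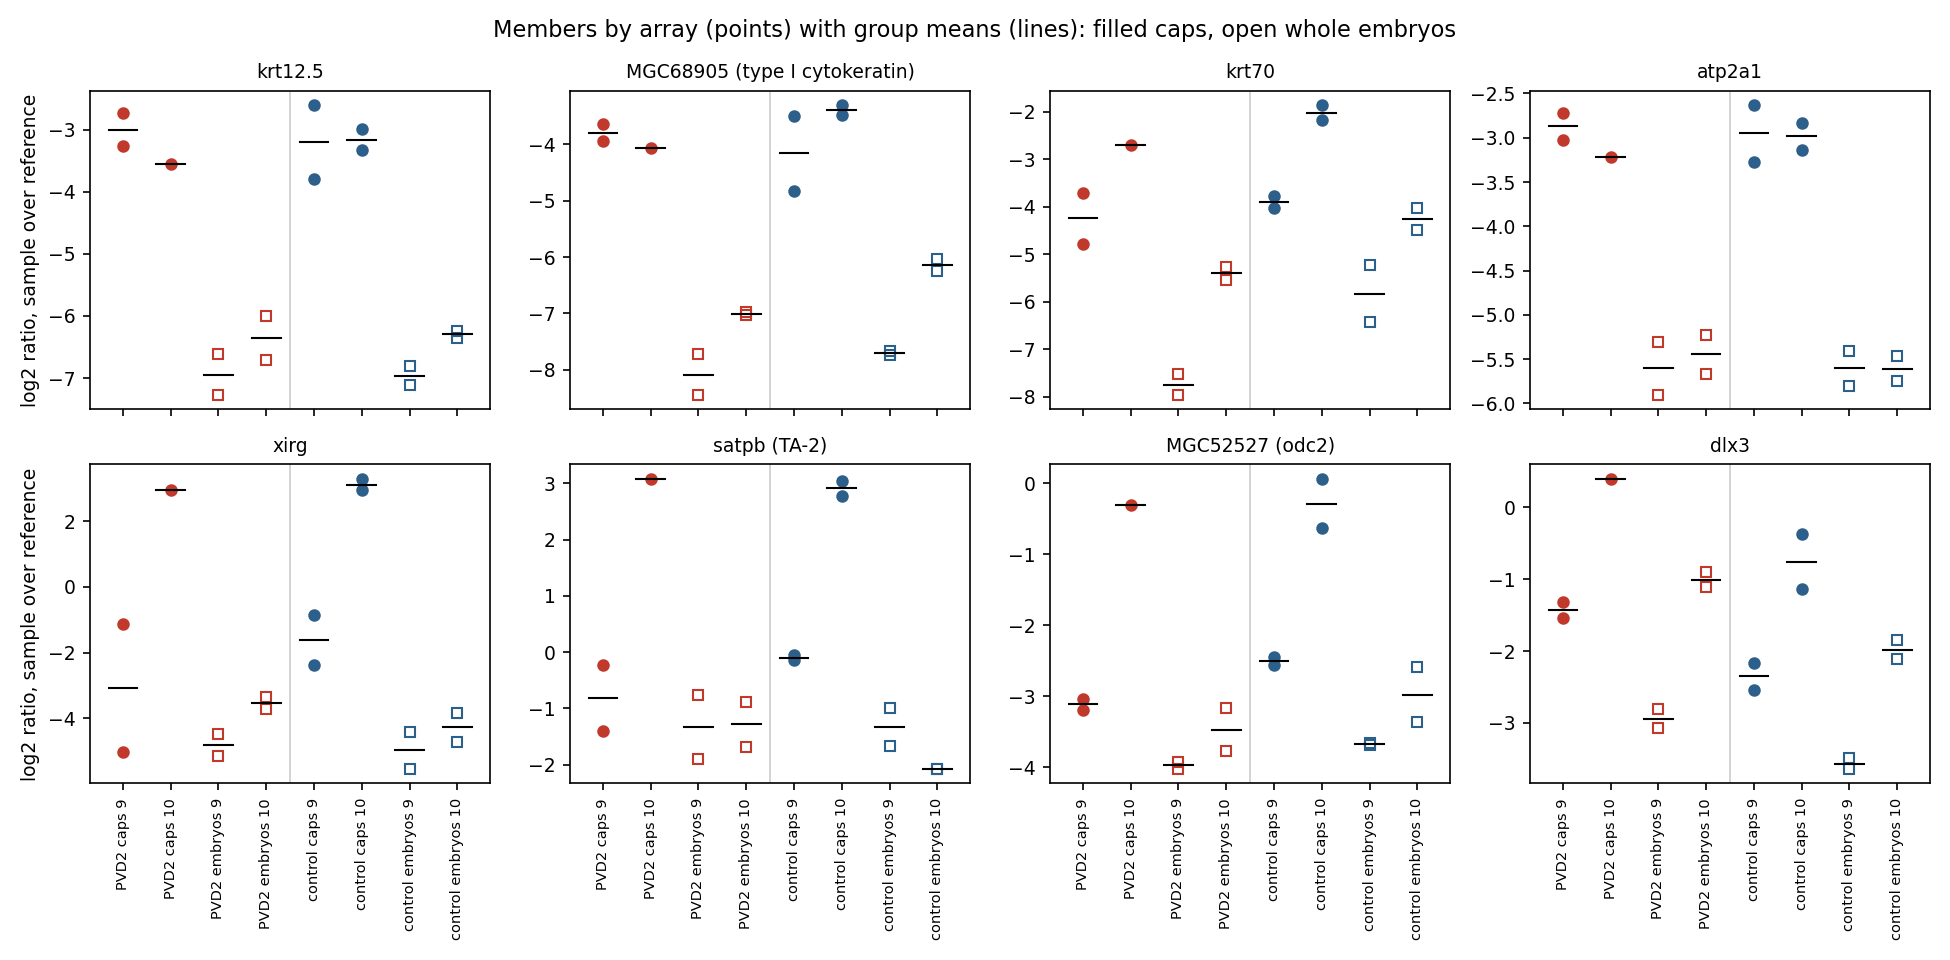
Log2 ratio of sample over reference (vertical axes, each with its own range) for 8 cap-high probes on each array, by morpholino, tissue and stage. Points are arrays, filled for caps and open for embryos, red for PVD2 and blue for control, and lines are group means. The 3 keratins and atp2a1 are higher in caps at both stages, while xirg, satpb and MGC52527 are highest in caps at stage 10 and dlx3 rises with stage in both tissues.

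Other members of epidermal or ectodermal kind gave less uniform test results. The transcription factor dlx3, a homeodomain protein of non-neural ectoderm, read −1.55, −1.32 and 0.39 in PVD2 caps, against −2.81, −3.08, −0.90 and −1.11 in PVD2 embryos, with each stage's caps above its embryos. The difference was 1.45 ± 0.19, or 2.74-fold (adjusted p = 0.0063). MGC52572, annotated as similar to id3, which inhibits basic helix-loop-helix factors, was higher by 1.34 ± 0.21 (adjusted p = 0.0125), and otogl2, an otogelin-like protein, by 1.86 ± 0.40 (adjusted p = 0.0378). The secreted fucolectin differed by 1.56 ± 0.48 and did not pass (adjusted p = 0.122). Neither did ras-dva1, a small GTPase of the anterior ectoderm, at 1.19 ± 0.39 (adjusted p = 0.149), nor xa1, an anterior ectoderm protein of Xenopus, at 1.23 ± 0.38 (adjusted p = 0.125). For fucolectin, PVD2 embryos read −6.91, −5.83 and −6.73, but −4.78 at stage 10, replicate 2. In the authors' values PVD2 caps and PVD2 embryos did not overlap for fucolectin (11.54 to 11.73 against 8.69 to 9.22) or xa1 (10.96 to 11.19 against 8.82 to 9.27). They overlapped for ras-dva1 (10.88 to 12.86 against 9.30 to 11.55).

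Genes known for muscle, matrix and liver were among the members at very low ratios. The calcium pump atp2a1 read −3.03, −2.72 and −3.22 in PVD2 caps, against −5.91, −5.31, −5.67 and −5.22 in PVD2 embryos, a difference of 2.48 ± 0.23 (5.58-fold, adjusted p = 0.00101) without overlap. The collagen chain col1a1 read −3.69, −3.80 and −3.67 in PVD2 caps, against −6.24, −5.25, −5.94 and −4.35 in PVD2 embryos, and was higher by 1.74 ± 0.38 (adjusted p = 0.0415). Both tissues were far below the reference for these genes. The SPARC probe MGC64258 (1.26 ± 0.59), the creatine kinase ckm (2.14-fold), serpina1 (1.22 ± 0.34) and the apolipoprotein probe MGC52934 (1.87 ± 0.56) had positive differences that did not pass, with adjusted p between 0.0921 and 0.295. For several such probes 1 array of PVD2 embryos, stage 10 replicate 2, read higher than the other 3. For anxa9, annotated in the files as annexin A2, PVD2 caps read −3.02, −2.95 and −2.81, whereas PVD2 embryos read −4.58, −3.25 and −4.31 and, on that array, −1.92. On that array the median of all members was −0.68, while it was −2.32 to −1.67 on the other 3 arrays of PVD2 embryos. Before normalization, the members' median log2 of net Cy3 over net Cy5 was −4.05 on that array and −4.80 to −4.35 on the other 3. In the authors' values, on a log2 scale of their own, anxa9 read 8.26 on that array and 7.51, 8.03 and 8.08 on the other 3. Leaving that array out raised the number of members called, though the share of all probes in that fit is not given here.

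The 7 ribosomal protein members were a similar set. Among them, rps10 was higher in PVD2 caps by 2.15 ± 0.42 (adjusted p = 0.0276), rps13 by 1.58 ± 0.21 (adjusted p = 0.00563) and rps-6 by 1.25 ± 0.27 (adjusted p = 0.0407). Those that did not pass were rpl34 at 0.96 ± 0.52 (adjusted p = 0.365), MGC82136 at 1.62 ± 0.51 (adjusted p = 0.13) and MGC86356 at 1.26 ± 0.33 (adjusted p = 0.0802). For rpl34 the net Cy3 signal was 98.0 to 107 units in PVD2 caps and 50.6 to 84.5 units in PVD2 embryos. Its net Cy5 signal, that of the reference, was 1388 to 1635 units on these cap arrays and 4704 to 11353 units on these embryo arrays. For rps13, PVD2 caps read −3.10, −3.06 and −2.93, against −4.82, −4.61, −4.72 and −4.18 in PVD2 embryos. A pair of other members that act in translation were also higher, the elongation factor eef2.1 by 1.35 ± 0.23 (adjusted p = 0.0182) and the RNA-binding protein serbp1 by 1.39 ± 0.15 (adjusted p = 0.00229). The array held 60 probes annotated as ribosomal proteins, a group formed after the values were seen. Among these 60, 5 were higher in PVD2 caps and 0 lower, beside 2.25% and 2.12% of all probes. Of these 5, 4 were among the 7 members, which had been chosen as high in control caps, so the count says little about the other ribosomal probes. The median was 0.03 over all 60 and 0.44 over the 36 that passed the background filter of the ranking.

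The cap-high probes were set against lists of marker genes, matched by gene symbol. Members known by clone names were missed, such as MGC52572, annotated as similar to the listed id3, and the cytokeratin MGC68905. The symbol otogl2 was not on a list. Of all 21459 probes tested, 2.25% were higher in PVD2 caps and 2.12% lower. The members were 150 of the 9592 ranked probes, so lists of this length would hold few members at that share. The background filter was passed by 34 of the ectoderm transcription factors, 20 of the adhesion genes and 29 of the signalling genes. Of 44 ectoderm transcription factors on the array, 1, dlx3, was a member. In the PVD2 arrays 4 of the 44 were higher in caps and 6 lower, with a median of −0.10. Of 22 genes of adhesion, polarity and junctions, 0 were members, 1 was higher (ctnnd1, a catenin) and 2 were lower, with a median of 0.10. Of 38 signalling ligands, receptors and inhibitors, 0 were members, 1 was higher (bmpr1a, a BMP receptor) and 12 were lower, with a median of −0.44. The 4 markers of multiciliated, ionocyte and secretory epidermis on the array held 0 members and 0 calls. By contrast 21 of 26 genes of the other germ layers, the vegetal pole and the germ plasm were lower in PVD2 caps and 0 higher, with a median of −2.43. The vegetal and mesendodermal genes eomes, sox17a and cer1 differed by −5.26 ± 0.38, −3.44 ± 0.22 and −3.13 ± 0.14. Over these lists, fixed with earlier results known, the cap-high probes that matched by symbol were dlx3 and 2 keratins.

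Between stages 9 and 10, a minority of the cap-high probes was called in caps, though a larger share than of all probes. Most of these calls were rises. Averaged over both morpholinos, 10 of the 150 rose and 1 fell in caps at an FDR of 0.05 (limma), beside 0.508% and 1.02% of all 21452 probes (1.53% in either direction). The members' median change was 0.05, with a range of −0.78 to 5.38. The control arrays in this comparison had also served to choose the members. The largest change was that of xirg, matched to acod1lb and annotated as the putative XIRG protein. It read −1.12 and −5.03 in PVD2 caps at stage 9 and 2.96 at stage 10, and −0.85 and −2.36 in control caps at stage 9 and 3.29 and 2.94 at stage 10. In embryos it stayed between −5.54 and −3.35 on all 8 arrays. Its rise in caps was 5.38 ± 0.86, or 41.7-fold (adjusted p = 0.0212). Both PVD2 cap arrays of stage 9 lay below all 3 cap arrays of stage 10, though far apart from each other.

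Of the members called in caps, a further 4 with a like pattern are given here. The transmembrane protein satpb, annotated as TA-2, read −0.24 and −1.40 in PVD2 caps at stage 9 and 3.08 at stage 10, and −0.06 and −0.15 in control caps at stage 9 and 3.05 and 2.77 at stage 10. In embryos it lay between −2.08 and −0.77 on all 8 arrays. Its rise in caps was 3.46 ± 0.38 (11.0-fold, adjusted p = 0.00549), against a change of −0.35 ± 0.34 in embryos. MGC52527, annotated as ornithine decarboxylase-2, an enzyme of polyamine synthesis, read −3.04 and −3.19 in PVD2 caps at stage 9 and −0.31 at stage 10, and −2.56 and −2.44 in control caps at stage 9 and −0.64 and 0.06 at stage 10. It rose by 2.51 ± 0.24 in caps (5.69-fold, adjusted p = 0.00367). The expressed sequence tags CD301128 and CF271873 rose by 2.79 ± 0.31 (adjusted p = 0.00596) and 1.47 ± 0.14 (adjusted p = 0.00388) in caps. In each of these 4 every cap array of stage 10 lay above every cap array of stage 9. Replicate 2 of the stage 10 PVD2 caps, used here only in the authors' processed values, read 15.67 there for satpb and 15.45 for MGC52527 on a log2 scale of its own, against 11.59 to 12.78 and 12.05 to 12.21 in PVD2 caps at stage 9.

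The difference between the stage change in caps and that in embryos was tested in a comparison added after the values were seen. It was 3.80 ± 0.51 for satpb (adjusted p = 0.126), 4.39 ± 1.16 for xirg (adjusted p = 0.892), 2.42 ± 0.42 for CD301128 (adjusted p = 0.225), 1.91 ± 0.32 for MGC52527 (adjusted p = 0.21) and 1.29 ± 0.19 for CF271873 (adjusted p = 0.159). Of the 150 members, 0 passed this test with limma, and 2 of all 21445 probes passed (0.00933%). In this fit the rise of these genes was therefore not shown to be greater in caps than in embryos. Some members passed with other background, channel or value settings and with the slide as a random block, as given in the last section. Which members these were is not given here. Control arrays that chose the members also entered this comparison.

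In embryos 6 members rose with stage and 0 fell, beside 1.51% and 1.66% of all 21488 probes (3.17% in either direction). The control embryo arrays of this comparison had also served to choose the members. They were dlx3 (1.76 ± 0.17, adjusted p = 0.00177), krt70 (1.96 ± 0.31, adjusted p = 0.0115), atp1b2, a beta subunit of the sodium pump (1.37 ± 0.21, adjusted p = 0.0102), the id3-like MGC52572 (1.34 ± 0.19, adjusted p = 0.00696), MGC52622, annotated as similar to syntenin (1.61 ± 0.26, adjusted p = 0.013), and the cytokeratin MGC68905 (1.32 ± 0.27, adjusted p = 0.036). Of these, 3 also rose in caps, dlx3 by 1.71 ± 0.19 (adjusted p = 0.00596), atp1b2 by 1.43 ± 0.24 (adjusted p = 0.0237) and MGC52572 by 1.21 ± 0.21 (adjusted p = 0.0292). For krt70 the value in caps was 1.72 ± 0.35 and just missed the threshold (adjusted p = 0.0547). The remaining rises in caps were those of MGC68910, an uncharacterized protein (2.45 ± 0.39, adjusted p = 0.02), and the tag AW633477 (0.46 ± 0.08, adjusted p = 0.0235), and the single fall was that of the tag AW639557 (−0.78 ± 0.15, adjusted p = 0.0495).

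**Figure D4:**
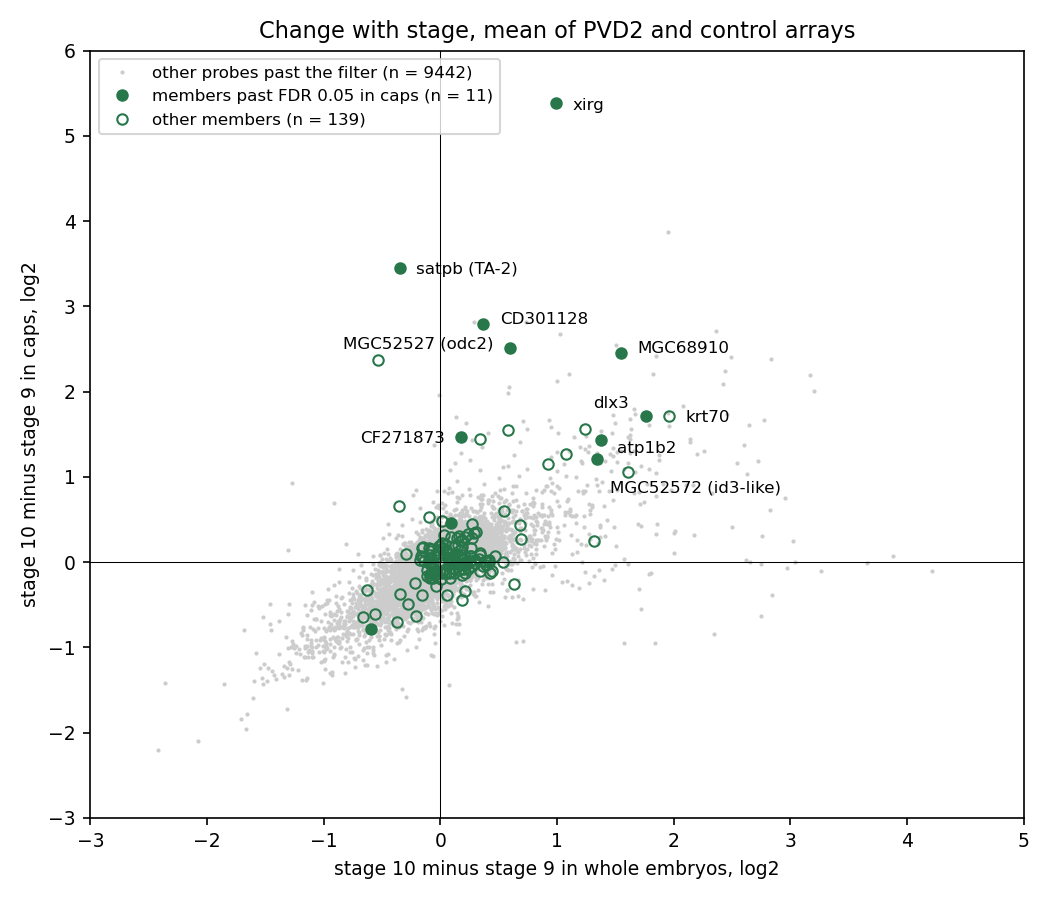
Change from stage 9 to stage 10 in caps (vertical axis, log2) against that in embryos (horizontal axis, log2), averaged over PVD2 and control arrays, with a point for each probe. Filled green points are the 11 members past the FDR of 0.05 in caps, open green points the other 139 members, and grey points the other probes that could be ranked. Most members lie near 0 on both axes, and xirg, satpb, CD301128 and MGC52527 lie high on the vertical axis.

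Few of the cap-high probes were called between PVD2 and control samples, and few of all probes were. With so few arrays a group, a missing call does not show that a probe did not change. Averaged over both tissues and stages, 2 of the 150 were higher in PVD2 samples and 0 were lower at an FDR of 0.05 (limma), beside 0.0513% higher and 0.359% lower of all 21445 probes (0.410% in either direction), and the members' median was 0.09. In control caps the choice of members favoured high readings and in control embryos low ones, which tends to lower the PVD2 effect in caps and raise it in embryos. The first was dlx3, which in caps read −1.55, −1.32 and 0.39 with PVD2, against −2.16, −2.53, −0.37 and −1.14 with the control morpholino. In embryos it read −2.81, −3.08, −0.90 and −1.11 with PVD2, against −3.64, −3.49, −1.84 and −2.12 with the control morpholino. At each stage and in each tissue all PVD2 arrays lay above all control arrays, and dlx3 was higher by 0.91 ± 0.13, or 1.89-fold (adjusted p = 0.0306). The second was the syntenin-like MGC52622, a homologue of an adaptor that binds syndecans, which read −2.63, −2.25 and −1.08 in PVD2 caps, against −2.95, −3.65, −2.18 and −2.90 in control caps. In embryos it read −4.32, −3.74, −1.11 and −1.75 with PVD2, against −4.58, −4.08, −3.51 and −3.92 with the control morpholino. It was higher by 1.22 ± 0.20 (2.33-fold, adjusted p = 0.0482). Both values were close to the threshold, and of 14 fits that each left out 1 array, none called both.

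The lowest PVD2 values among the members belonged to krt70 (−1.02 ± 0.23, adjusted p = 0.216), MGC68910 (−0.92), the tag BP699428 (−0.67), MGC81990 (−0.41) and the cytokeratin MGC68905 (−0.39), none of which passed. For krt70, PVD2 embryos read −7.96, −7.52, −5.54 and −5.26, against −6.43, −5.23, −4.49 and −4.03 in control embryos, and within each stage all PVD2 arrays lay below all control arrays. In caps it read −4.78, −3.71 and −2.69 with PVD2, against −3.77, −4.02, −2.17 and −1.85 with the control morpholino, with overlap at stage 9. Within caps alone 0 of the 150 members passed, and 17 of all 21452 probes passed (0.0792%). Within embryos alone 0 members passed, and 0 of all 21488 probes passed. Below the 2 called members, the highest named values were those of ras-dva1 (0.63 ± 0.26) and MGC52572 (0.52 ± 0.14), which did not pass either. Values for other leading members were −0.06 ± 0.22 for krt12.5, 0.00 ± 0.15 for atp2a1 and −0.18 ± 0.58 for xirg.

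The number of cap-high probes called between PVD2 caps and PVD2 embryos varied with the processing and the arrays used. With the authors' processed values of 16 arrays 144 of the 150 were higher in PVD2 caps, where 13.4% of all probes were, and with no background correction 133, where 8.89% were. With median centring in place of loess 5 members were higher, which were all 5 probes called higher of the array (0.0233%). The count fell without replicate 1 or replicate 2 of PVD2 embryos at stage 9, and without replicate 1 of PVD2 caps at stage 9. Each of these fits left a group with 1 array. In none of these settings was a member lower. With Cy3 alone, 85 members were higher and 3 lower, where 9.30% of all probes were higher. Smaller moves came with a filter on dim probes (59 members higher, 3.33% of probes), the replicate number as a block (76 members, 4.26%) and the slide as a random block (39 members, 1.17%). The keratins krt12.5 and MGC68905 and the pump atp2a1 passed under all 24 alternatives tried for this comparison.

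**Figure D5:**
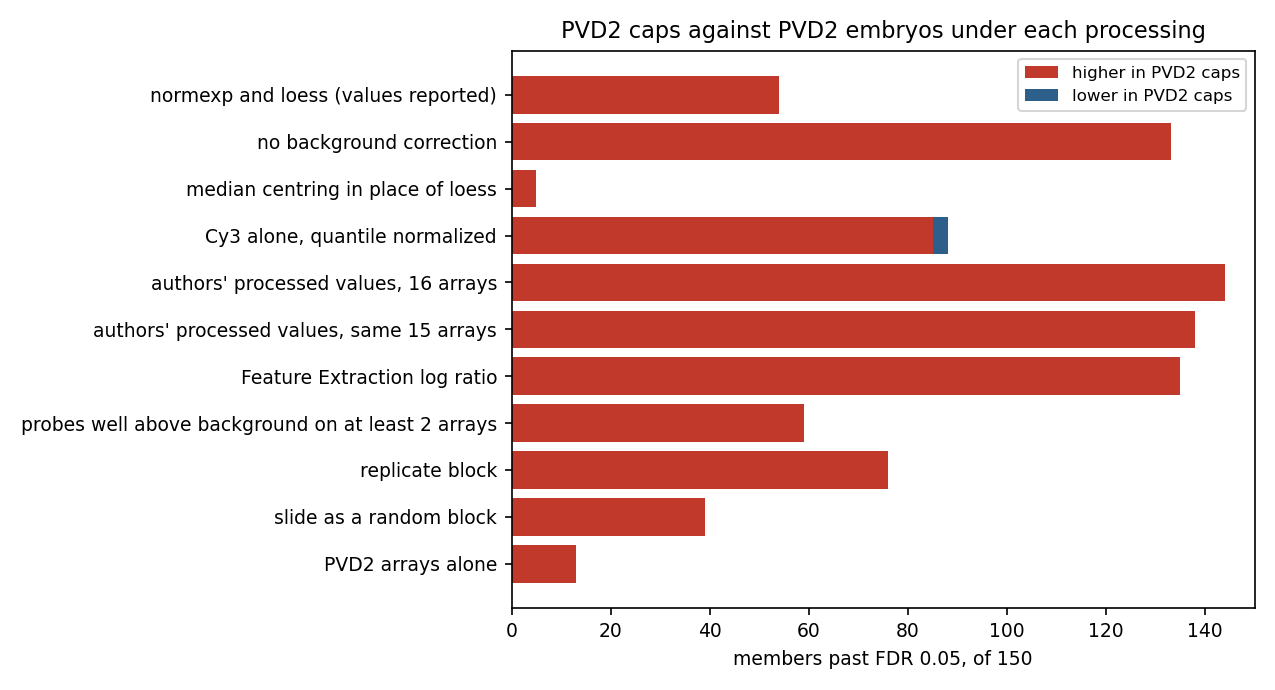
Members past the FDR of 0.05 in PVD2 caps against PVD2 embryos (horizontal axis, of 150) under each processing, 1 bar per setting, with calls higher in PVD2 caps in red and lower in blue. The count was 54 for the values reported, ran between 5 and 144 over the other settings, and had calls in the lower direction only with Cy3 alone.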

How the data were processed

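Agilent 2-colour arrays were scanned by the authors with Agilent Feature Extraction 9.5.1.1, and the deposited scanner output held mean and background intensities of both channels and spot flags. The deposited value table held log10 values of 16 arrays, whose computation is not given in the sources used here. Differences between arrays in it followed those of the Feature Extraction log ratio. The number of value columns left unused was 0.

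Members were chosen in the value table, and the members and gene lists were chosen with earlier results of these data known. For 15 arrays, intensities were background corrected with normexp (offset 50) and normalized by loess within arrays in limma 3.58.1 (R 4.3.3). Outlier flags and control spots were left out, and 2 spots per probe were averaged. A model with 8 group means was fitted to all probes with lmFit and eBayes, and adjusted p-values are from limma with Benjamini-Hochberg adjustment over all probes at an FDR of 0.05. The model had no block for the slide, so errors and p-values take arrays on the same slide as independent. With the slide as a random block, the estimated correlation within a slide was 0.346. Errors after ± are SE. The labels do not say that replicates came from separate clutches, so p-values measure the spread between these samples. The script was tested on simulated data.

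Named were the 25 leading named members, members on marker lists, the members with the largest PVD2 differences and the largest stage changes in caps, and 5 named probes on either side of the threshold. Other members named in a group were chosen after their values were seen. Alternatives covered background, normalization, channel, value source, filter, slide, replicate number and each array left out. Within a tissue, arrays with the same number shared a slide. Deviations from group means correlated with r over 0.1 in 9 of 9 pairs of groups there (0.467 to 0.878). A pairing of samples and a shared slide cannot be told apart within a tissue. Across tissues r was over 0.1 in 10 of 12 pairs (−0.369 to 0.662). No sequence is shown because none was used here. Values of some members are not reported here.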

Additional observations from a re-analysis of the deposited data

How the results depend on the processing

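Counts of members past the FDR of 0.05 moved with the background correction, the normalization, the channel and the source of values, and the cause was not tested. For PVD2 caps against PVD2 embryos (54 members), the count was 133 with no background correction, 5 with median centring, 88 with Cy3 alone, 144 and 138 with the authors' values of 16 and the same 15 arrays, 135 with the Feature Extraction log ratio and 13 in the PVD2 arrays alone. Of all probes, 10.0% were higher with the authors' values of the same 15 arrays and 11.1% with the Feature Extraction log ratio. Median centring moved the median of all probes to −0.14 in this comparison and to 0.15 for the stage change in embryos. For PVD2 against control over both tissues (2 members), it was 4 with no background correction, 0 with median centring, 4 with Cy3 alone and 6 with the authors' 16 arrays. In caps (0) it was 1 with the authors' 16 arrays. In embryos (0) it was 2 with no background correction, 1 with Cy3 alone, 8 and 6 with the authors' 16 and 15 arrays and 7 with the Feature Extraction log ratio. For the stage change in caps (11) it was 24 with no background correction, 1 with median centring, 21 with Cy3 alone, 22 and 17 with the authors' 16 and 15 arrays and 17 with the Feature Extraction log ratio. In embryos (6) it was 18, 3, 24, 33, 29 and 30 under these 6 settings in the same order, and 12 with the slide as a random block. For the difference of both stage changes (0), it was 3 with no background correction, 2 with Cy3 alone, 4 and 2 with the authors' 16 and 15 arrays, 1 with the Feature Extraction log ratio and 4 with the slide block.

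Leaving out 1 array gave 25 to 70 members for PVD2 caps against PVD2 embryos, 0 to 1 for PVD2 against control, 0 to 0 in caps and in embryos alone, 5 to 12 for the stage change in caps, 3 to 10 in embryos and 0 to 1 for their difference. In caps, 5 were called without control caps stage 10 replicate 1, and 6 without replicate 2 of that group or without control caps stage 9 replicate 2. In embryos the 3 arose without PVD2 embryos stage 9 replicate 1 and the 10 without PVD2 embryos stage 10 replicate 2. Of the 2 calls for PVD2, 1 was left without either control cap array of stage 10 or without PVD2 embryos stage 10 replicate 1, and 0 without any other array. The fit without the single scanner array of PVD2 caps at stage 10 could not be made for comparisons that use it. The share of all probes called is not given for the fits that left out an array. It is also not given for the other settings outside PVD2 caps against PVD2 embryos. Whether these counts moved with those of the whole array therefore cannot be read from them. When the replicate number entered as a block, the counts were 76 for PVD2 caps against PVD2 embryos and 2 for PVD2 against control. They were 16 and 9 for the stage change in caps and embryos and 0 elsewhere, and no count moved by over 1.5 times. The choice of members itself shared 73 probes with the same ranking of scanner values, 32 with a ranking without the background filter, and 121 to 135 when 1 control array was left out. Single members were followed across the alternatives only where they were named and called. For the 22 such members of the tissue comparison, the call was kept in 404 cases and lost in 123, and iqgap1 changed sign with Cy3 alone, to −0.20. Named members that were not called were not followed.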
